A study of Mus musculus with 8 samples.

Results

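Chromatin modifiers are enzymes and complexes that write, remove or read marks on histones and DNA, or move nucleosomes. The 51 genes described here cover the polycomb complexes PRC2 and PRC1, heterochromatin protein 1 (HP1), the NuRD deacetylase complex, DNA methylation and histone demethylases. They also cover the DOT1L methyltransferase, partners of the MLL methyltransferases but no MLL gene itself, histone acetyltransferases, the SWI/SNF remodelling complex, and 3 further members. They were chosen by name, and every probe annotated to one of those symbols was taken. Of the 51 genes, 47 had a probe (108 probes in all), out of 19057 gene symbols with a probe on the array. Cbx1, Hdac1, Gatad2a and Tet2 had no probe under that symbol in the annotation used here. A probe was tested where its signal was above background (detection p under 0.05) on at least 2 of the 8 arrays, which left 37 members with 50 probes, against 8189 symbols in all, and 26 of the 37 were above background on all 8 arrays. Ezh1, Bmi1, Rnf2, Cbx8, Chd3, Dnmt3a, Tet3, Kat6a, Crebbp and Smarcd1 had probes that were above background on 0 or 1 array and were not tested.

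PRC2 methylates histone H3 at lysine 27 and PRC1 ubiquitinates histone H2A, and both are known for silencing developmental genes. NuRD couples histone deacetylases to a nucleosome remodelling ATPase. MLL proteins methylate histone H3 at lysine 4, and in MLL-AF9 leukaemia the fusion protein is known to depend on menin, on LEDGF and on DOT1L for the expression of its target genes.

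The study knocked down Itgb3, the gene of integrin beta 3, in mouse leukaemia stem cells carrying the MLL-AF9 oncogene, and measured RNA on an Illumina bead array. All 8 arrays came from cells of C57BL/6 Actin-dsRed background, taken from the bone marrow of mice bearing the leukaemia as a quaternary transplant. The cells were sorted for dsRed, low Hoechst staining, high c-kit, CD34 and high FcyRII. A control shRNA (Luc) gave 3 arrays, the hairpin Itgb3-17 gave 3 and the hairpin Itgb3-20 gave 2, so both knockdown groups were compared with the same 3 controls. Whether a group's arrays stand for separate mice is not stated in the labels, and the p-values reflect the spread among these samples, part of which may be technical. Itgb3 itself could not be checked, because its only probe was above background on 0 of 8 arrays (detection p from 0.324 to 0.912).

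Between 9262 and 11856 probes were above background on an array, among them 38 to 52 of the 108 member probes. Precision is limited by the small number of arrays. Of 11 leukaemia stem cell and myeloid progenitor markers, 10 were tested, while Cd34, a marker of the sort, was above background on 1 array. The mean log2 level of the 9 granulocyte markers ran from 6.09 to 6.16 in controls. It ran from 6.31 to 6.44 with Itgb3-17 and from 6.72 to 6.84 with Itgb3-20. For both hairpins together 3 of them (S100a9, Ltf and Camp) were called higher, while Mmp8 was above background on 0 arrays. S100a9 was called with Itgb3-20 (1.975, limma adjusted p = 0.000274) but not with Itgb3-17 (0.30, 0.366). Ltf was not above background on any control, so it passed the filter only through the knockdown arrays, where it is high. The progenitor markers averaged 8.15 to 8.31 in controls, 8.27 to 8.34 with Itgb3-17 and 8.41 to 8.62 with Itgb3-20. Of these, for both hairpins together, Mpo, Elane and Fcgr2b rose and Hoxa9 fell (-0.81, adjusted p = 0.0222). Hoxa9 was at -1.19 (0.014) with Itgb3-20. The 8 monocyte and macrophage markers averaged 5.0 to 5.24, 4.98 to 5.12 and 5.18 to 5.21 in the same order. Of these Lyz2 was called for both hairpins together (0.46, 0.0458). It was called with Itgb3-20 (1.03, adjusted p = 0.00351) but not with Itgb3-17 (-0.11, 0.72). No erythroid or megakaryocyte marker was above background on enough arrays to be tested. The part of these markers in the changes below was not tested. In bulk RNA, fewer cells of a type and less RNA per cell cannot be told apart.

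With both hairpins given equal weight, 9 of the 37 tested members changed between knockdown and control. The PRC2 core genes Ezh2 and Suz12 fell, as did Rbbp7, a histone chaperone of PRC2 and NuRD, and the acetyltransferase Ep300. The demethylases Kdm1a and Kdm5b, the SWI/SNF subunit Arid1a, the deacetylase Hdac3 and the polycomb-associated Asxl1 rose, though the Arid1a probe passed the filter through knockdown arrays alone. The 4 tested PRC1 members, the 7 of NuRD other than the shared chaperones and the 6 of the MLL and DOT1L group did not pass the test in either direction. A change was called where limma's adjusted p, by Benjamini-Hochberg over all 13315 tested probes, was under 0.05, and the probe of highest mean stood for a gene.

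The share of members called was close to that of all genes. With knockdown 5 of 37 members (13.5%) were higher against 9.46% of all tested genes, and 4 (10.8%) were lower against 8.25%. The members' median log2 change was 0.00769, with an interquartile range from -0.18 to 0.274, against 0.0210 for all tested genes, whose range ran from -0.189 to 0.23. With Itgb3-17, 4 members were higher (10.8% against 7.53%) and 2 lower (5.41% against 6.34%). With Itgb3-20, 3 were higher (8.11% against 6.26%) and 4 lower (10.8% against 5.28%). For 5 members every knockdown array exceeded every control (13.5%, against 12.0% of tested genes), and for 3 every knockdown array was below every control (8.11%, against 9.34%).

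**Figure D1:**
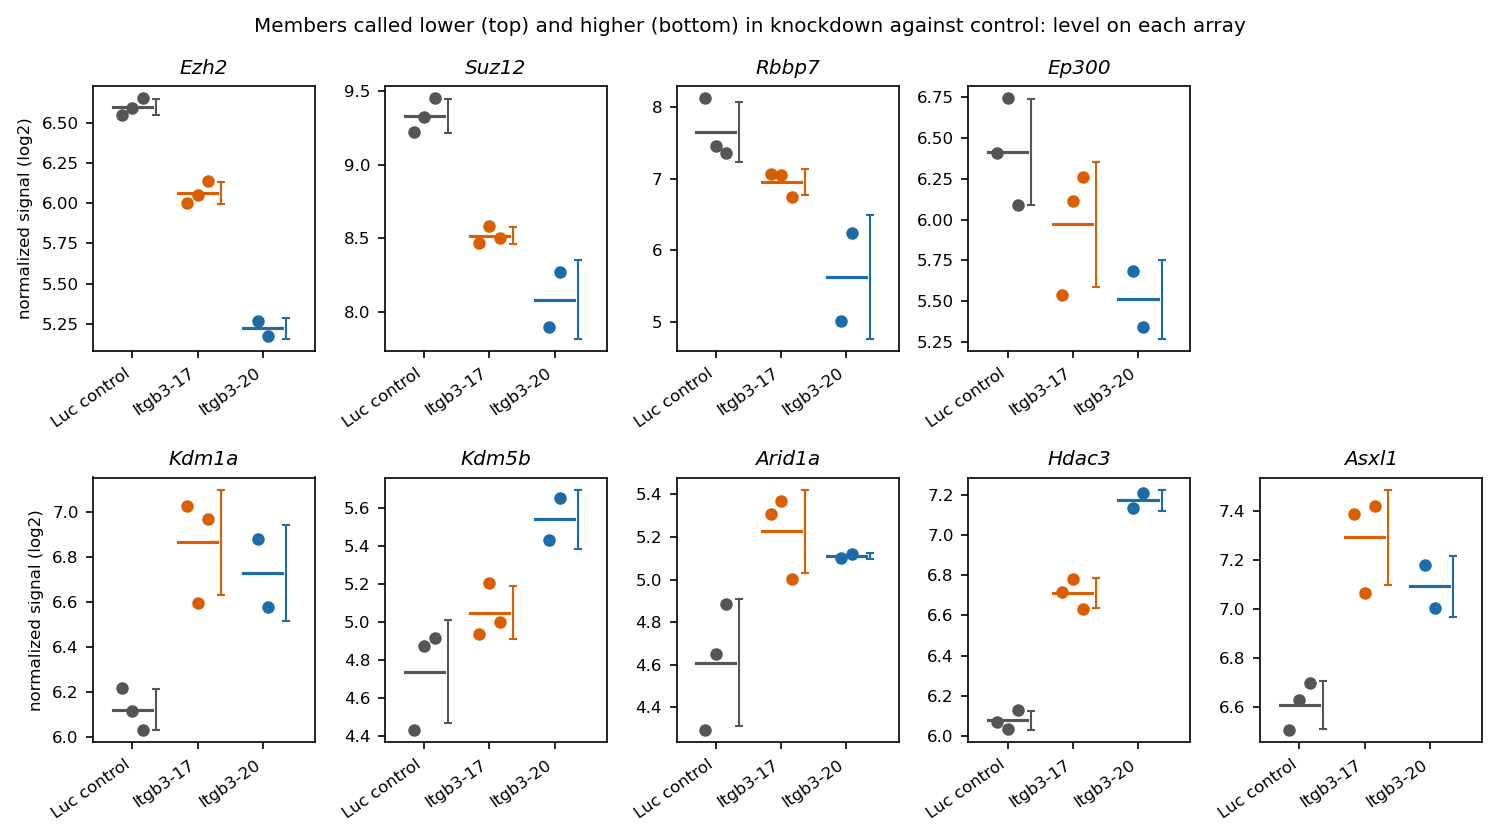
Normalized log2 signal of the 9 called members on each array, with 1 panel per gene and its own vertical range; points are arrays, horizontal lines group means and bars the SD (n = 3, 3 and 2). The top row holds the 4 members that fell and the bottom row the 5 that rose, and Ep300 is the member among them whose control and knockdown arrays overlap.

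Of the 4 PRC2 genes, 3 were tested, 2 fell and 0 rose. Ezh2 encodes the methyltransferase of the complex. Its normalized log2 signal was 6.55, 6.59 and 6.65 on the control arrays, 6.00, 6.05 and 6.14 with Itgb3-17, and 5.27 and 5.18 with Itgb3-20. The 3 groups did not overlap, with Itgb3-20 lowest and Itgb3-17 between it and the controls. The log2 change with knockdown was -0.96 ± 0.132 (SE; adjusted p = 0.00042), or 1.94-fold lower. With Itgb3-17 alone it was -0.54 ± 0.146 (adjusted p = 0.0241) and with Itgb3-20 alone -1.38 ± 0.164 (adjusted p = 0.000295). The Itgb3-17 call was lost without any one of the 3 controls or without Itgb3-17 replicate 1 or 2 (from -0.56 to -0.50, adjusted p from 0.0509 to 0.0983).

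A second tested probe of Ezh2 could not show a fall, since it was not above background on any control. It was above background on 2 of the 3 Itgb3-17 arrays and on no other array, with log2 signals of 4.39, 4.79 and 5.0 there, and says nothing for or against the fall of the first. The mean of both probes, which takes that probe in, changed by -0.32 (adjusted p = 0.101).

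Suz12, the zinc finger subunit that PRC2 needs for its stability, had log2 signals of 9.22, 9.32 and 9.45 in the controls, 8.47, 8.58 and 8.50 with Itgb3-17, and 7.90 and 8.27 with Itgb3-20. Every knockdown array lay below every control, and both Itgb3-20 arrays lay below the Itgb3-17 arrays. The change was -1.03 ± 0.142 (SE; adjusted p = 0.00042), or 2.04-fold lower, with -0.81 (adjusted p = 0.00386) for Itgb3-17 and -1.25 (adjusted p = 0.000939) for Itgb3-20. Eed, the subunit that binds methylated lysine 27, was above background on 3 of 8 arrays and changed by -0.08 ± 0.149 (adjusted p = 0.781; 95% interval from -0.39 to 0.24).

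When arrays were scaled to a common median in place of quantile normalization, the median change of all tested probes moved to 0.149 and the members split into 5 higher and 1 lower in place of 5 and 4. Lower calls were lost across the array, from 1189 higher and 1044 lower probes to 1327 and 79. Ezh2 then changed by -0.63 (adjusted p = 0.0504) and Suz12 by -0.74 (0.0554), which was -0.78 and -0.88 relative to that median.

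Rbbp7 and Rbbp4 encode sister histone chaperones (RbAp46 and RbAp48) found in both PRC2 and NuRD. Rbbp7 had log2 signals of 8.13, 7.46 and 7.36 in the controls, 7.06, 7.06 and 6.74 with Itgb3-17, and 5.02 and 6.24 with Itgb3-20. All knockdown arrays lay below all controls, and the Itgb3-20 arrays were lowest and far from each other. The change was -1.36 ± 0.237 (SE; adjusted p = 0.00144), or 2.56-fold lower, the largest size among the 37 tested members. With Itgb3-17 alone it was -0.69 ± 0.263 (adjusted p = 0.0947) and was not called, and with Itgb3-20 alone it was -2.02 ± 0.294 (adjusted p = 0.00106). The Itgb3-20 value was -1.42 (adjusted p = 0.0175) without replicate 4 and -2.62 (1.61e-05) without replicate 5.

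Rbbp7 was the member with the most tested probes. A second was above background on every array, with log2 signals from 7.18 to 7.42 in the controls, from 6.10 to 6.31 with Itgb3-17 and of 4.92 and 6.03 with Itgb3-20. It fell too, with a log2 change of -1.42 ± 0.198 (adjusted p = 0.000444), and was called with each hairpin (-1.04, adjusted p = 0.00631, and -1.80, 0.000773). The third, above background on 7 of 8 arrays, changed by -0.26 ± 0.194 (adjusted p = 0.408). It was not called with either hairpin, at 0.22 with Itgb3-17 (adjusted p = 0.572) and -0.73 with Itgb3-20 (0.0625). Rbbp4 was above background on 5 of 8 arrays and changed by 0.28 ± 0.202 (adjusted p = 0.391).

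The promoters of the 3 genes with the largest falls are shown beside that of Kdm1a, a gene that rose, because members that moved together can be compared in sequence. Each window holds the 250 bases before the gene's start, 5′ to 3′ on the gene's own strand, from RefSeq on GRCm38.p6: chr6:47595031-47595280 for Ezh2 (minus strand), chr11:79992856-79993105 for Suz12 (plus), chrX:162760122-162760371 for Rbbp7 (plus) and chr4:136602724-136602973 for Kdm1a (minus). Capitals mark the CCAAT box on either strand (CCAAT, read as ATTGG on the other) and, in Suz12 at 219 bases before the start, an E2F-like match TTTCCCGC.
Ezh2: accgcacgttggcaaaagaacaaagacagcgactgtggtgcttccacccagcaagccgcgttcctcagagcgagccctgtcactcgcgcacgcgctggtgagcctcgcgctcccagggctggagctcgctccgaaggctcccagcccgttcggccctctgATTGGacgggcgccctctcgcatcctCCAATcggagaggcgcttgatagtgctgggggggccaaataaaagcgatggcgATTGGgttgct
Suz12: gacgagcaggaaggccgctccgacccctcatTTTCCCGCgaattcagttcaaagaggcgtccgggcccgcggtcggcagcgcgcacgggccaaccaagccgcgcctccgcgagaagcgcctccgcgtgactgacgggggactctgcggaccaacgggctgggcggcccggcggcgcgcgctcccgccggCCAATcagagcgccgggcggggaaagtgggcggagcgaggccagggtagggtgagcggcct
Rbbp7: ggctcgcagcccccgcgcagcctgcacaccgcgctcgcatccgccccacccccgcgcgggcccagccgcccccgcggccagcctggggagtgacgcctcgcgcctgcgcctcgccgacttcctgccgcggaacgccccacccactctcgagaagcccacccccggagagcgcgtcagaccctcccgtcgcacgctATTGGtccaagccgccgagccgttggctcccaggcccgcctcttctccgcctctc
Kdm1a: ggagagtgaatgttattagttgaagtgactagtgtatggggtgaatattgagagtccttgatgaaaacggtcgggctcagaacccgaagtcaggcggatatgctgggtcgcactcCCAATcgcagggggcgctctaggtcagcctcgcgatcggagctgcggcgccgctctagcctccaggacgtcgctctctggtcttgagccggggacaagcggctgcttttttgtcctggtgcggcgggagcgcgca

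The CCAAT box occurred 3 times before Ezh2, with first bases 90, 64 and 11 bases before the start, and was also present before Suz12 (61 bases), Rbbp7 (55 bases) and Kdm1a (135 bases). It was found in 33.8% of all 32851 RefSeq promoter windows of that length and in 14 of the 43 members with a window (32.6%), among them 3 of the 4 that fell and 1 of the 4 that rose and had a window. The E2F-like pattern TTTNNCGC, searched on both strands, was in 4.28% of all windows and in 8 of the 43 members, 2 that fell (Suz12 and Ep300), 2 that rose (Arid1a and Asxl1) and 4 others. A core ETS pattern (CCGGAA) was in 12% of all windows and 10 members, and a GC box (GGGCGG) in 32.7% and 36 members. A gene with several windows was counted once if any held the motif, the windows of members held a median of 21 CpG sites against 6 in all windows, and a match describes the letters only.

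By limma 0 of the 4 tested PRC1 members were called, and 0 had an unadjusted p under 0.05. Ring1, a ubiquitin ligase subunit, changed by -0.01 ± 0.159 and Kdm2b, which brings a variant PRC1 to CpG islands, by 0.12 ± 0.154. Phc1, a polyhomeotic subunit and the member of lowest p in this group, had log2 signals of 4.40, 4.47 and 4.57 in the controls, 4.69, 4.60 and 4.33 with Itgb3-17, and 4.75 and 4.83 with Itgb3-20, of which only the Itgb3-20 arrays and 1 Itgb3-17 array were above background. Its groups overlapped (0.19 ± 0.14, adjusted p = 0.406), and its paralogue Phc2 changed by -0.22 ± 0.186 (adjusted p = 0.46). The catalytic partners Rnf2 and Bmi1 and the chromodomain reader Cbx8 were among the untested members.

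HP1 proteins bind histone H3 methylated at lysine 9. Cbx3, HP1 gamma, was called by 1 of its 2 tested probes. The probe of highest mean read 5.96, 6.18 and 6.15 in the controls, 6.09, 6.79 and 6.34 with Itgb3-17, and 6.69 and 5.28 with Itgb3-20, so the groups overlapped, and it changed by 0.10 ± 0.244 (adjusted p = 0.827). The other probe read 6.40, 5.66 and 6.03 in the controls, 4.88, 4.93 and 5.09 with Itgb3-17, and 4.40 and 5.25 with Itgb3-20. There every knockdown array lay below every control, and the probe fell, with a log2 change of -1.13 ± 0.198 (adjusted p = 0.00144). Their mean changed by -0.52 and was called (adjusted p = 0.0199).

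Apart from the shared chaperones Rbbp7, which fell, and Rbbp4, all 7 tested NuRD members were uncalled by limma for both hairpins together, 0 at an unadjusted p under 0.05, with log2 changes between -0.22 and 0.27. Mta2, a scaffold subunit and the one of lowest p, read 5.82, 5.52 and 6.00 in the controls, 6.04, 5.80 and 5.93 with Itgb3-17, and 5.95 and 6.29 with Itgb3-20. Its groups overlapped, and it changed by 0.24 ± 0.154 (adjusted p = 0.32; 95% interval from -0.08 to 0.57). Chd4, the remodelling ATPase, changed by 0.27 ± 0.198 on its brighter probe and by -0.40 ± 0.227 on the other, neither called. Hdac2, a catalytic deacetylase, changed by -0.11 ± 0.161 (adjusted p = 0.683), and the scaffold Mta3 by 0.00 ± 0.144 (95% interval from -0.31 to 0.31). That mean for Mta3 came from 0.24 with Itgb3-17 (adjusted p = 0.365) and -0.24 with Itgb3-20 (0.443). Mbd2 and Mbd3, of the methyl-CpG-binding domain family, mark alternative forms of the complex and changed by -0.22 ± 0.157 and 0.17 ± 0.167. With Itgb3-17, Mbd3 was at 0.47 (unadjusted p = 0.0212, adjusted p = 0.106).

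Of the DNA methyltransferases, Dnmt1 and Dnmt3b were tested, and for both hairpins together neither was called by limma or had an unadjusted p under 0.05. Dnmt1, the maintenance enzyme, read 6.40, 6.11 and 6.03 in the controls, 7.06, 6.81 and 6.21 with Itgb3-17, and 6.38 and 6.40 with Itgb3-20. The highest values were those of Itgb3-17 replicates 1 and 2, while Itgb3-17 replicate 3 and Itgb3-20 replicate 4 lay within the controls and Itgb3-20 replicate 5 just above the highest of them. It changed by 0.36 ± 0.179 (adjusted p = 0.188), by 0.51 ± 0.199 with Itgb3-17 alone (unadjusted p = 0.0198, adjusted p = 0.102), and for both hairpins by 0.48 (adjusted p = 0.0496) without Itgb3-17 replicate 3. Dnmt3b, a de novo enzyme, changed by -0.17 ± 0.141 (adjusted p = 0.445). Dnmt3a and the dioxygenase Tet3, both recurrent subjects of haematopoietic stem cell work, stayed below the limit for testing.

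Of the 3 demethylases, 2 rose and 0 fell. Kdm1a (LSD1) removes methyl groups from lysine 4 of histone H3 within the CoREST complex and is known as a dependency of MLL-AF9 leukaemia stem cells. It read 6.21, 6.11 and 6.03 in the controls, 7.03, 6.59 and 6.97 with Itgb3-17, and 6.88 and 6.58 with Itgb3-20. All knockdown arrays lay above all controls, and the hairpins overlapped. The rise was 0.68 ± 0.15 (SE; adjusted p = 0.0063), or 1.60-fold. With Itgb3-17 it was 0.74 (adjusted p = 0.00867), called in all leave-one-out fits but that without Itgb3-17 replicate 1 (0.66, 0.0524). With Itgb3-20 it was 0.61 (adjusted p = 0.0462), and that call was lost without any one of the 3 controls, Itgb3-17 replicate 1 or 3, or Itgb3-20 replicate 4 (from 0.46 to 0.66, adjusted p from 0.0592 to 0.311). It was also lost under median scaling (0.79, adjusted p = 0.167), without the filter (0.103), with array weights (0.0973) and in a fit of the 2 groups alone (0.0858), and was kept in 7 of 17 alternatives.

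Kdm5b (JARID1B), another lysine 4 demethylase, read 4.43, 4.87 and 4.92 in the controls, 4.94, 5.21 and 5.0 with Itgb3-17, and 5.43 and 5.65 with Itgb3-20. The knockdown arrays lay above the controls, Itgb3-17 by a small margin, and 2 of the 3 controls were above background. The rise was 0.56 ± 0.154 (SE; adjusted p = 0.021), from 0.31 (adjusted p = 0.263) with Itgb3-17 and 0.80 (0.0141) with Itgb3-20. It was not called without Luc control replicate 1 (0.42, adjusted p = 0.116) or Itgb3-17 replicate 2 (0.53, 0.0517), with all knockdown arrays as a single group (0.51, 0.0724) or without the filter (adjusted p = 0.0666). The Itgb3-20 call was lost without either of its arrays (0.93 and 0.68, adjusted p = 0.0536 and 0.066), under median scaling (0.83, 0.083) and without the filter (0.0561). Kdm6a (UTX), which removes the mark PRC2 writes, changed by 0.10 ± 0.211 (adjusted p = 0.79). A second Kdm6a probe, also above background on all 8 arrays, changed by 0.48 ± 0.229 (adjusted p = 0.173). That probe changed by 0.78 with Itgb3-17 (adjusted p = 0.053) and by 0.18 with Itgb3-20 (0.75), and was not called.

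By limma 0 of the 6 MLL and DOT1L members were called, and 2 (Rbbp5 and Wdr5) had an unadjusted p under 0.05. Rbbp5, a core subunit of MLL complexes, had the lowest p and read 6.20, 6.33 and 6.46 in the controls, 5.84, 5.79 and 6.08 with Itgb3-17, and 5.58 and 6.24 with Itgb3-20. All Itgb3-17 arrays were below the controls, while 1 Itgb3-20 array fell among them. It changed by -0.42 ± 0.164 (adjusted p = 0.0926), and by -0.58 (adjusted p = 0.013) without Itgb3-20 replicate 5. Wdr5, another core subunit, changed by 0.37 ± 0.168 (adjusted p = 0.155), and by 0.57 (adjusted p = 0.0255) without Itgb3-20 replicate 4. The menin gene Men1 changed by -0.03 ± 0.157 (95% interval from -0.36 to 0.30), the LEDGF gene Psip1 by -0.19 ± 0.136 (from -0.48 to 0.10). Ash2l changed by 0.01 ± 0.144 (from -0.30 to 0.31) and Dot1l, the lysine 79 methyltransferase, by 0.00 ± 0.221 (from -0.47 to 0.47). A second tested probe changed by 0.32 ± 0.178 for Men1 (95% interval from -0.05 to 0.70) and by -0.08 ± 0.159 for Psip1. That of Ash2l, above background on 2 arrays, changed by -0.29 ± 0.14. None of these second probes was called. Wdr5 was above background on 6 arrays and Dot1l on 7.

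**Figure D2:**
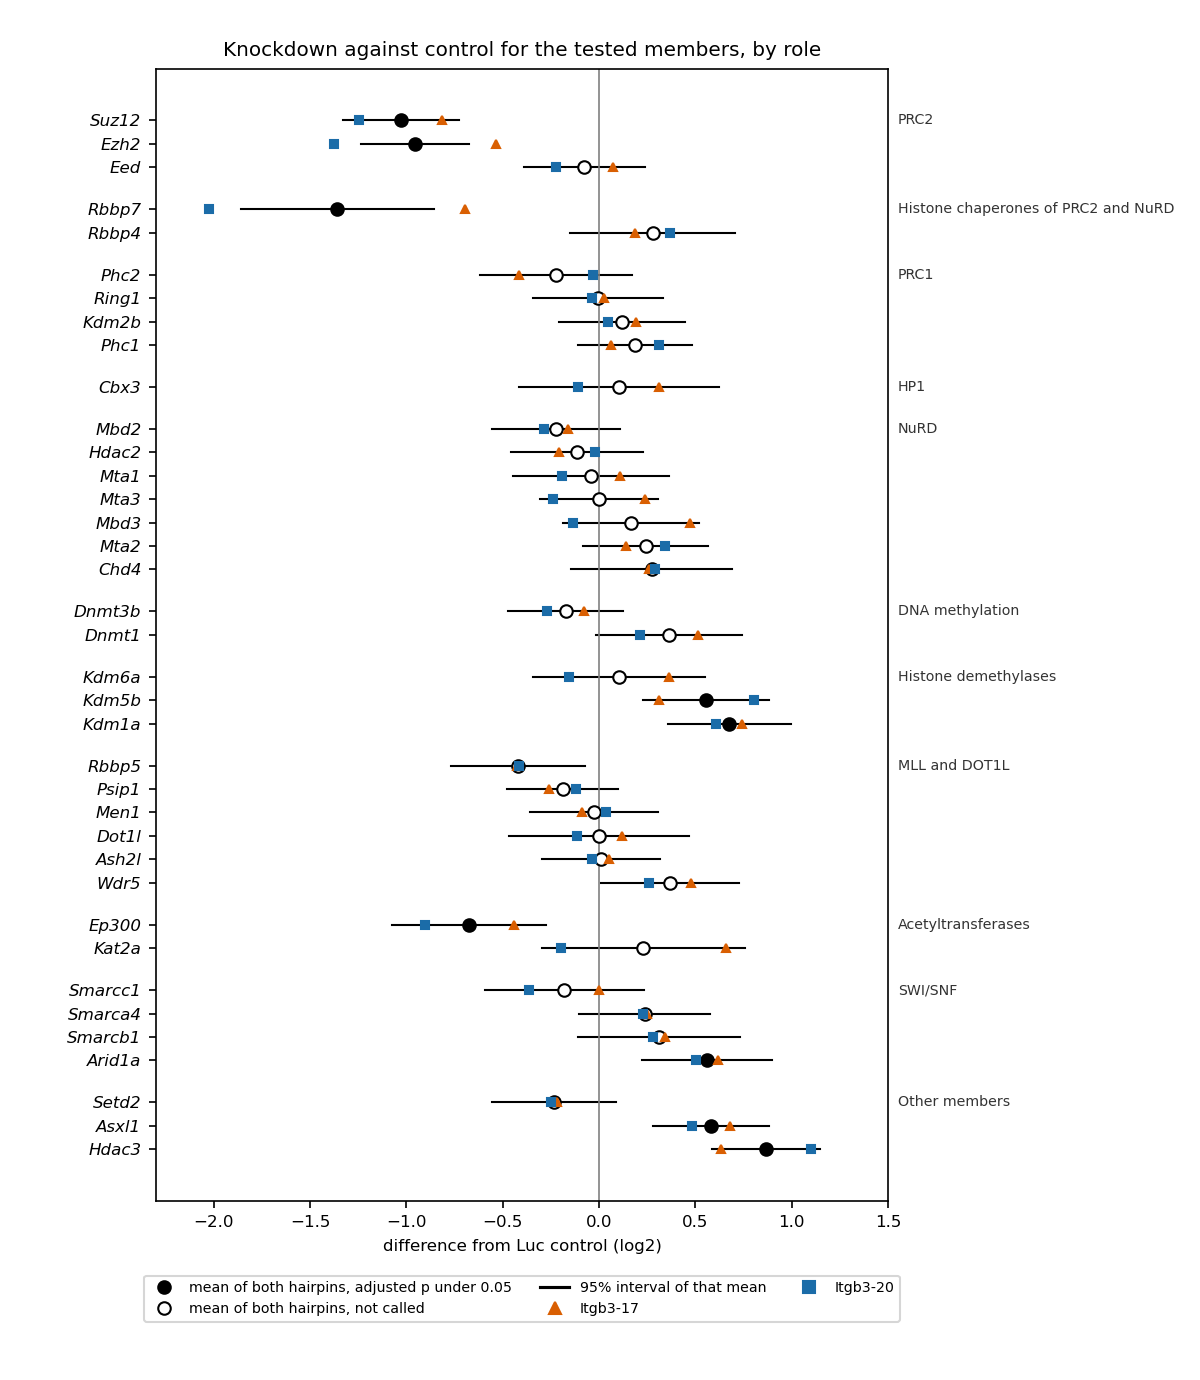
Log2 difference from the Luc control for the 37 tested members, grouped by role; circles are the mean of both hairpins with its 95% interval, filled where the adjusted p is under 0.05, triangles Itgb3-17 and squares Itgb3-20. Suz12, Ezh2, Rbbp7 and Ep300 lie filled on the left and Kdm1a, Kdm5b, Arid1a, Asxl1 and Hdac3 on the right, and the other 28 circles are open.

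Ep300, the p300 acetyltransferase and transcriptional coactivator, read 6.41, 6.75 and 6.09 in the controls, 5.54, 6.11 and 6.26 with Itgb3-17, and 5.68 and 5.34 with Itgb3-20. The lowest control fell among the Itgb3-17 arrays, so control and knockdown overlapped. The fall was -0.67 ± 0.189 (SE; adjusted p = 0.0226), from -0.44 (adjusted p = 0.184) with Itgb3-17 and -0.90 (0.0222) with Itgb3-20. It was not called without Luc control replicate 1 (-0.68, adjusted p = 0.0632) or 2 (-0.51, 0.133), under median scaling (-0.37, 0.315) or with all knockdown arrays as a single group (-0.63, 0.0524). The Itgb3-20 call was lost without Luc control replicate 1 or 2 or either Itgb3-20 array (from -1.09 to -0.72, adjusted p from 0.0503 to 0.103). Kat2a (GCN5), the other tested acetyltransferase, changed by 0.23 ± 0.248 (adjusted p = 0.582), from 0.66 with Itgb3-17 (0.13) and -0.20 with Itgb3-20 (0.739). Crebbp, the paralogue of Ep300, was not tested.

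Of 4 tested SWI/SNF members, 1 was called higher and 0 lower. Arid1a, the DNA-binding subunit of the canonical complex, read 4.29, 4.65 and 4.88 in the controls, 5.31, 5.37 and 5.0 with Itgb3-17, and 5.10 and 5.12 with Itgb3-20. All knockdown arrays were above background and above the controls, of which 1 of 3 was above background, so the probe passed the filter only through the knockdown arrays, where it is high. The fitted change was 0.56 ± 0.159 (SE; adjusted p = 0.0242), with 0.62 (0.0303) for Itgb3-17 and 0.50 (0.117) for Itgb3-20, and its size is uncertain with 1 control above background. Both calls were lost without Luc control replicate 1 or 2 or Itgb3-17 replicate 1 or 2 (from 0.42 to 0.59 for knockdown, adjusted p from 0.0577 to 0.128). The ATPase gene Smarca4 (0.24 ± 0.161) and the core subunit genes Smarcb1 (0.31 ± 0.198) and Smarcc1 (-0.18 ± 0.195) were not called.

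Hdac3, the catalytic subunit of the NCoR and SMRT corepressor complexes, had the largest rise among the members. It read 6.07, 6.03 and 6.13 in the controls, 6.72, 6.78 and 6.63 with Itgb3-17, and 7.14 and 7.21 with Itgb3-20. The groups did not overlap, and their order was the reverse of that of Ezh2. The rise was 0.87 ± 0.132 (SE; adjusted p = 0.00072), or 1.82-fold, with 0.63 (adjusted p = 0.00999) for Itgb3-17 and 1.10 (0.00119) for Itgb3-20. The Itgb3-17 call was lost without Itgb3-17 replicate 2 (0.60, adjusted p = 0.054).

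Asxl1, a partner of the BAP1 deubiquitinase that is linked to polycomb silencing, read 6.50, 6.63 and 6.70 in the controls, 7.39, 7.07 and 7.42 with Itgb3-17, and 7.18 and 7.00 with Itgb3-20. All knockdown arrays lay above all controls. The rise was 0.58 ± 0.143 (SE; adjusted p = 0.0111), with 0.68 (adjusted p = 0.0104) for Itgb3-17 and 0.48 (0.094) for Itgb3-20. The call for both hairpins was lost without Luc control replicate 1 (0.53, adjusted p = 0.0532) and that for Itgb3-17 without its replicate 1 (0.63, 0.0552). A second probe was not above background on any control and was at least 1.35-fold higher in knockdown, the bound being set by the dimmest signal above background on each control array. It passed the filter through the knockdown arrays alone and adds no support to the first probe. Setd2, the lysine 36 methyltransferase, changed by -0.23 ± 0.151 (adjusted p = 0.327).

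**Figure D3:**
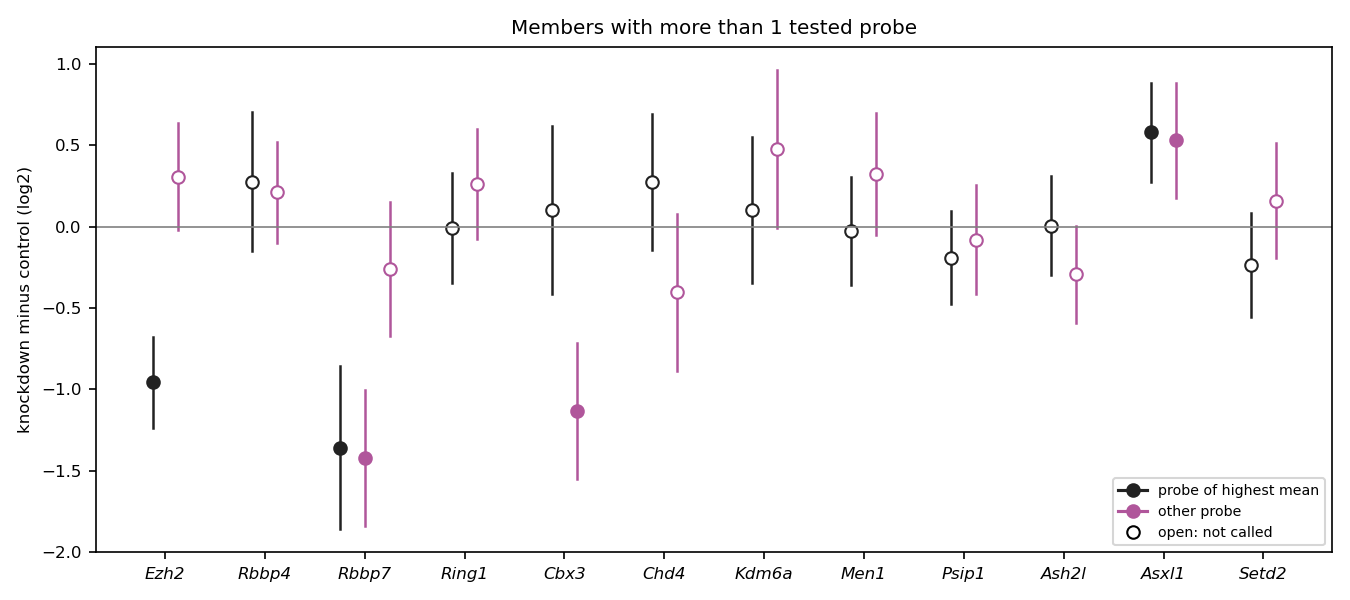
Log2 change with knockdown (95% interval) for each tested probe of the 12 members with more than 1; dark points are the probe of highest mean, purple points the others, and open points were not called. Both called probes of Rbbp7 lie below 0 and 1 of the 2 probes of Cbx3 is called, while the second probes of Ezh2 and Asxl1 were not above background on any control.

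Among the 12 members with more than 1 tested probe, 7 of 14 probe pairs (50%) had the same sign, a count that takes in changes near 0 and probes at background in the controls. Ezh2, Rbbp7, Asxl1 and Cbx3 had a called probe, and no member had probes called in opposite directions. Of the 50 tested member probes, 12 were called, 6 higher and 6 lower, among them the Asxl1 probe that no control measured, while 16.8% of all tested probes were called. Cbx3 was the single member whose other probe was called when the probe of highest mean was not.

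The hairpins differed for 1 member, Ezh2, against 0.672% of tested genes (2.70% of members). Ezh2 was lower with Itgb3-20 than with Itgb3-17 by a log2 difference of -0.84 ± 0.164 (SE; adjusted p = 0.031). That call was lost without any one of the 3 Itgb3-17 arrays or the 2 Itgb3-20 arrays (from -0.90 to -0.78, adjusted p from 0.0638 to 0.141). Rbbp7 differed by -1.33 ± 0.294 (adjusted p = 0.0576) and did not pass the test. For the other 35 members the adjusted p of the difference was at least 0.211.

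Other genes of the same complexes were taken from 10 lists of 195 genes, of which 133 were tested, 13 rose (9.77%) and 10 fell (7.52%), with a median change of 0.0731. These shares lie near the 9.46% and 8.25% of all tested genes, so the counts below describe the lists and set none of them apart. Among PRC2 partners, the accessory subunit gene Aebp2 fell (-0.76, adjusted p = 0.00721) with both hairpins together, while Mtf2, the other tested, was not called there (0.42, 0.204) and rose with Itgb3-17 (0.86, 0.0255; -0.02 and 0.97 with Itgb3-20). Of 10 tested PRC1 partners, Pcgf5, which defines a variant PRC1, fell (-0.89, adjusted p = 0.000694) and L3mbtl2, of another variant, was called higher (0.52, 0.0365). L3mbtl2 was above background on 1 of 3 controls, so it passed the filter only through the knockdown arrays. Its control and knockdown arrays overlapped, and it was called with Itgb3-20 (adjusted p = 0.031) but not with Itgb3-17 (0.261). The HP1 alpha gene Cbx5 fell (-0.79, adjusted p = 0.00203), 1 call among 4 tested genes of its list.

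Among 13 tested partners of NuRD and the deacetylases, 3 rose and 1 fell, and those of lowest p were Hdac5, a class II deacetylase (0.81, adjusted p = 0.00449), and the SIN3 complex gene Sap130 (0.65, 0.0118). Of 6 tested DNA methylation partners 2 rose, Uhrf1, the cofactor that brings Dnmt1 to replicated DNA (0.65, adjusted p = 0.00646), and the methyl-CpG reader Mbd1 (0.77, 0.00383). Of 21 tested MLL and elongation partners 2 rose and 3 fell, among the latter Dpy30, a core subunit of MLL complexes (-0.76, adjusted p = 0.00214), and the elongation factor cyclin gene Ccnt1 (-0.71, 0.00529).

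Of 23 tested acetyltransferase partners 3 were called higher and 0 lower, including the adaptor Tada2a and the enzyme Kat6b (0.47, adjusted p = 0.026). Kat6b was above background on 1 of 3 controls, so it passed the filter only through the knockdown arrays. Tada2a was not above background on any control, and the mean of its knockdown arrays was at least 1.34-fold higher. It was called with Itgb3-17 (adjusted p = 0.00511) but not with Itgb3-20 (0.215). Of the 2 Itgb3-20 arrays 1 was above background, and control and knockdown arrays overlapped. Tada2a passed the filter through knockdown arrays alone. Of 23 tested SWI/SNF partners 1 rose, Smarcd2, a subunit known for its part in granulocyte maturation (0.62, adjusted p = 0.00836). By limma 0 of 11 tested demethylase partners were called, with 2 lower at an unadjusted p under 0.05. Of 20 other histone writers and erasers 1 rose, the deacylase Sirt7 (0.82, adjusted p = 0.00204), and 3 fell, with Kmt5b, a lysine 20 methyltransferase of histone H4, at -0.91 (0.00436).

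**Figure D4:**
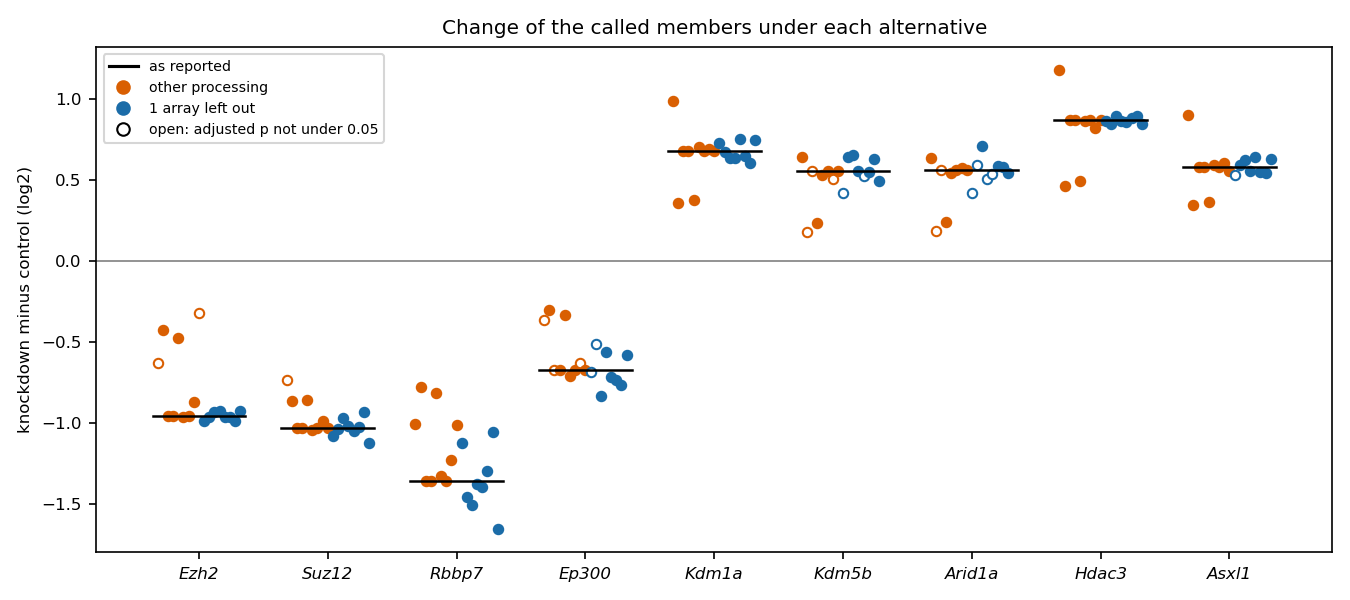
Log2 change with knockdown for the 9 called members as reported (black line) and under each alternative, in orange for other processing and blue for 1 array left out; open points had an adjusted p of 0.05 or more. No point crosses 0, every point of Rbbp7, Kdm1a and Hdac3 is filled, and the change closest to 0 is that of the mean of probes for Ezh2, of median scaling for Suz12 and of signals without background correction for the other 7.

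The size of the changes depended on how background was handled. Without background correction, Ezh2 changed by -0.43, Suz12 by -0.87, Rbbp7 by -0.78, Ep300 by -0.30, Kdm1a by 0.35, Hdac3 by 0.46 and Asxl1 by 0.35, each still called, while Kdm5b (0.18, adjusted p = 0.0582) and Arid1a (0.18, 0.0697) were not. On the authors' deposited normalized values all 9 were called, with Ezh2 at -0.48, Rbbp7 at -0.81 and Hdac3 at 0.49.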

How the data were processed

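Per the labels, total RNA was isolated with Trizol and biotin-labelled by Illumina's standard method. The deposited table gives the average bead signal intensity of 45281 probes on 8 arrays, not normalized, and a detection p-value for each, per the file headers; which software made them is not given in the sources used here. The second deposited table holds log2 values with the same median in every column (6.61), as quantile normalization by the authors would leave them; how it was made is not given in the sources used here, so it served as an alternative.

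Probe symbols came from the array's platform annotation: 34885 probes carried 1 symbol, while 18 with several and 10378 with none listed were left unnamed. With limma 3.58.1 (R 4.3.3), intensities were background-corrected by normexp (negative controls were inferred from detection p), given an offset of 16, quantile normalized and put on a log2 scale. The test took the 13315 probes whose detection p was under 0.05 on 2 or more arrays. A fit with the 3 groups and no covariates gave moderated tests, two-sided and adjusted by Benjamini-Hochberg over all tested probes. Knockdown is the equal-weight mean of both hairpins minus control. No 2 of the 28 pairs of arrays were identical, and the lowest correlation within a group was 0.967. The fit was run on simulated data with known changes and independent noise drawn from its own estimates of the spread. That run checks the code and gives no support to the calls reported here. Replicate numbers shared by the control and Itgb3-17 showed no sign of pairing the samples (correlations of deviations 0.0279, -0.024 and -0.0059). With 3 arrays in each group these correlations cannot exclude a pairing.

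Values on every array are given for called members and for the member of lowest p in each role group, and of each list of other complex genes at most the 2 of lowest p are named. The members and lists were chosen with earlier results of these data known. The alternatives were another scaling, no background correction, other filters, the authors' values, array weights, other moderation, a single knockdown group, the mean of a gene's probes, each comparison's 2 groups alone, the replicate block and leaving out each array. Promoter windows came from RefSeq (GRCm38.p6), which held 43 of the 51 members.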

Additional observations from a re-analysis of the deposited data

Results flagged for a closer look

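Ezh2 stood out because its change differed between the hairpins by a direct test. The log2 change was -0.54 with Itgb3-17 and -1.38 with Itgb3-20, and the difference was -0.84 (limma adjusted p = 0.031), with both Itgb3-20 arrays below all 3 Itgb3-17 arrays. Over 16 alternatives the difference ran from -1.07 to -0.32 and stayed called in 8 (adjusted p from 0.017 to 0.141). Under median scaling it was -1.07 (0.131). The mean of the 9 granulocyte markers differed between the hairpins too (6.31 to 6.44 against 6.72 to 6.84), and its part in the difference was not tested.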

How the results depend on the processing

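None of the 23 calls on single members changed sign under any alternative run, and 325 of 392 recomputed values stayed called. For knockdown against control, 131 of 151 did. The counts that follow take in every gene called under an alternative, also genes not called as reported. Members higher with knockdown, 5 as reported, numbered 3 with no background correction and 2 to 6 without 1 control or Itgb3-17 array. They also numbered 3 with no filter on dim probes (47 members tested) and with a filter on all 8 arrays (26 members tested). Members lower with knockdown, 4 as reported, numbered 1 under median scaling and 3 to 4 without 1 control or Itgb3-17 array. Members higher with Itgb3-17, 4 as reported, numbered 8 under median scaling and 1 to 5 with 1 array left out. Those lower with Itgb3-17, 2 as reported, numbered 0 under median scaling, 1 with the mean of all probes, and 1 to 3 with 1 array left out. Members higher with Itgb3-20, 3 as reported, numbered 1 under median scaling and 1 without a filter. Those lower with Itgb3-20, 4 as reported, numbered 2 under median scaling and 3 to 4 without 1 control or Itgb3-17 array. The single member that differed between hairpins became 0 under median scaling, without a filter or with the mean of probes, 2 with the stricter filter, the authors' values or array weights, and 0 to 2 with 1 array left out. Genes called in the lists of other complex members, 23 as reported, numbered 13 under median scaling and 15 without a filter. The replicate block rests on shared numbers that showed no sign of pairing the samples. With that block 7 members were higher and 3 lower with Itgb3-17, and no sample pairing is implied. The cause of these shifts was not tested, apart from the fewer or more probes tested that the filters bring. Signal over background limits Arid1a, Kdm5b, Eed, Rbbp4, Phc1, Mta1, Mbd2, Smarca4, Wdr5, Kat2a and Dot1l, which were above background on 2 to 7 arrays.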
